A study of Mus musculus with 8 samples.

Results

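The cytosolic ribosomal protein genes encode the protein components of the ribosome, and they were examined here in 2 fractions of sorted adipose progenitors of the mouse. Members were all genes whose symbol on the array follows the Rpl and Rps naming of the large (60S) and small (40S) subunit, with the stalk genes Rplp0, Rplp1 and Rplp2 and with Rpsa, and without the Rps6 kinases. The array carried 62 such symbols on 92 probes, and 59 of these genes passed the detection filter, among 10724 genes tested in all. Of the 59, 24 belong to the 40S and 35 to the 60S subunit. None of the 59 differed between the fractions past the test, and 12 of them lay far below their usual level on a single array of the CD9low fraction.

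The cells were taken from the epididymal white fat of lean C3H/HeOuJ mice 3 months old, whose sample titles all name chow, after collagenase digestion. Both fractions were gated as CD45- CD31- Gp38+ PDGFRα+, that is, as stromal cells without the leukocyte and endothelial surface markers, and they were separated by the surface level of the tetraspanin CD9 into CD9high and CD9low. Each fraction had 4 samples, called CD9high 1 to 4 and CD9low 1 to 4, each on its own array. No label ties a sample to its own animal or to a pool of animals, so that p-values measure the spread between these samples, which may be technical. The source name of the CD9low samples speaks of high CD9 and the protocol states the CD9high gate for both, and the titles were followed. On the arrays Cd9 averaged 8.44 ± 0.14 in CD9high and 4.80 ± 0.52 in CD9low (log2 intensity, SD, n = 4 each), and it was detected on 2 of the 4 CD9low arrays. That difference of 3.63 (SE 0.28, limma adjusted p = 0.000187) checks the labels only, because CD9 was the sorting marker. The gate genes Pdgfra and Pdpn (Gp38) were detected on all 8 arrays, at 10.88 to 11.58 and 10.80 to 11.21, with overlapping fractions.

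In cells, the small subunit reads the messenger RNA and the large subunit joins the amino acids, and each ribosome needs its proteins in fixed proportions. Messenger RNAs of ribosomal proteins are abundant in dividing and growing cells, and most begin with a run of pyrimidines, the terminal oligopyrimidine (TOP) tract, through which the growth kinase mTOR sets their translation. The messenger RNA level measured by an array is therefore one of several layers of ribosome supply. Because RNA came from bulk samples, fewer cells of a type and less RNA per cell cannot be told apart.

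The windows around the annotated start of 10 member genes are shown because the start is where a TOP tract lies. They were picked to show windows with and without the motifs among genes that were low on 1 array and among genes that were not, and they are not in proportion to the counts that follow. Each runs from 10 bases before the start to 20 after it, 5′ to 3′ on the gene's strand, from RefSeq on GRCm38.p6. Capitals mark CTTTC (a pyrimidine run, which reads GAAAG where it lies on the other strand) and CCGGAAG (the core bound by ETS factors), both searched on both strands. In Rpl7a the capitals hold 2 matches of CTTTC that overlap by 1 base. A window without CTTTC can still hold another pyrimidine run, as that of Rps6 does, so that a missing match does not show a missing TOP tract. The first 5 genes were low on CD9low 2, that is, more than 2 log2 units below the median of the other arrays. The last 5 were not, though Rpl31 deviated by -1.38 there.
Rps6: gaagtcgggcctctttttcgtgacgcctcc
Rpl24: gctgttgctaggaaacagactgggcgctcg
Rpl26: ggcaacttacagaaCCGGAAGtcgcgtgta
Rpl7a: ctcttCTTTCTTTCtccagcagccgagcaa
Rps3a1: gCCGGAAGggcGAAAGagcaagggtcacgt
Rpl38: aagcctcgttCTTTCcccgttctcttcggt
Rplp2: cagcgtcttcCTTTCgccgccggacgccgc
Rpl31: tcctcgcctccccgtgacCCGGAAGttgta
Rps23: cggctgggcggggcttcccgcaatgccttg
Rps25: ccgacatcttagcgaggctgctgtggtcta

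These windows lie at chr4:86857348-86857377 (Rps6, minus strand), chr16:55966265-55966294 (Rpl24, plus), chr11:68901556-68901585 (Rpl26, plus), chr2:26910797-26910826 (Rpl7a, plus), chr3:86142649-86142678 (Rps3a1, minus), chr11:114668570-114668599 (Rpl38, plus), chr7:141447641-141447670 (Rplp2, plus), chr1:39367841-39367870 (Rpl31, plus), chr13:90923112-90923141 (Rps23, plus) and chr9:44407704-44407733 (Rps25, plus). RefSeq promoters were matched for 48 of the 59 members. CTTTC stood in the 30-base window of 11 of these 48 genes (22.9%), against 8.58% of all genes with a promoter in the table. CCGGAAG stood somewhere in the 300 bases around the start of 22 of 48 (45.8%), against 9.93% of all genes. Among members low on CD9low 2, CTTTC was present in 2 of 11 and CCGGAAG in 4 of 11, and among the other members in 9 of 37 and 18 of 37. These counts cover both strands, while a TOP tract lies on the gene's own strand. On that strand alone CTTTC stood in 10 of 48 members and in 1197 of all 27025 genes. It stood there in 1 of the 11 low members and 9 of the 37 others. A match is a description of the letters and does not show a bound or used site.

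One library, CD9low 2, stood apart from the rest over the whole table. The measures used here do not compare the fractions, and they were chosen with earlier results known. On CD9low 2, 41.1% of probes were above background, the lowest share, followed by 42.6% on CD9high 2 and 45.4% to 51.1% on the other 6 arrays. Its median deposited signal was 5.03, against 7.14 to 10.5 elsewhere. Across all genes tested, 333 (3.11%) lay more than 2 log2 units below the median of the other 7 arrays on CD9low 2, against 75 (0.699%) on CD9high 2 and between 6 and 46 on each other array. Values without CD9low 2 stand below beside those with it where this array moved them most.

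Between the fractions, 0 of the 59 ribosomal protein genes passed an adjusted p of 0.05 in limma, in either direction, where 181 of 10724 genes (1.69%) did. At an unadjusted p under 0.05 there was 1 member, Rpl13a, where 10.7% of all genes reached that level. Without CD9low 2 the members called were again 0, against 2.14% of all genes, and the lowest adjusted p of a member was 0.421. The median log2 difference, CD9high minus CD9low, was 0.14 over the members and -0.04 over all genes. It was above 0 for 40 of the 59 members (67.8%), against 45.6% of all genes. Without CD9low 2 the median was 0.10 over the members and -0.03 over all genes, and 52 of 59 (88.1%) were above 0, against 46.3% of all genes. Members share arrays, so that these counts describe 8 samples and not 59 separate observations.

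For the members with the largest differences the size depended on 1 array. With 8 arrays the differences ran from -0.34 (Rps20) to 1.16 (Rpl24), and without CD9low 2 from -0.39 (Rps20) to 0.59 (Rplp0). The median standard error fell from 0.27 to 0.22. In the 40S subunit the median difference was 0.18 with 16 of 24 genes above 0, and in the 60S subunit 0.08 with 24 of 35 above 0. Without CD9low 2 the medians were 0.08 in the 40S, with 18 of 24 above 0, and 0.12 in the 60S, with 34 of 35 above 0, so that their order turned. The arrays lay on 2 slides. On the first slide the members' median difference was 0.19 with 36 of 59 above 0, and on the second, which held 1 array of each fraction, 0.07 with 42 above 0. Over all genes 44.8% were above 0 on the first slide and 51.0% on the second. The sign was the same on both slides for 25 members, which was not counted over all genes.

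**Figure D1:**
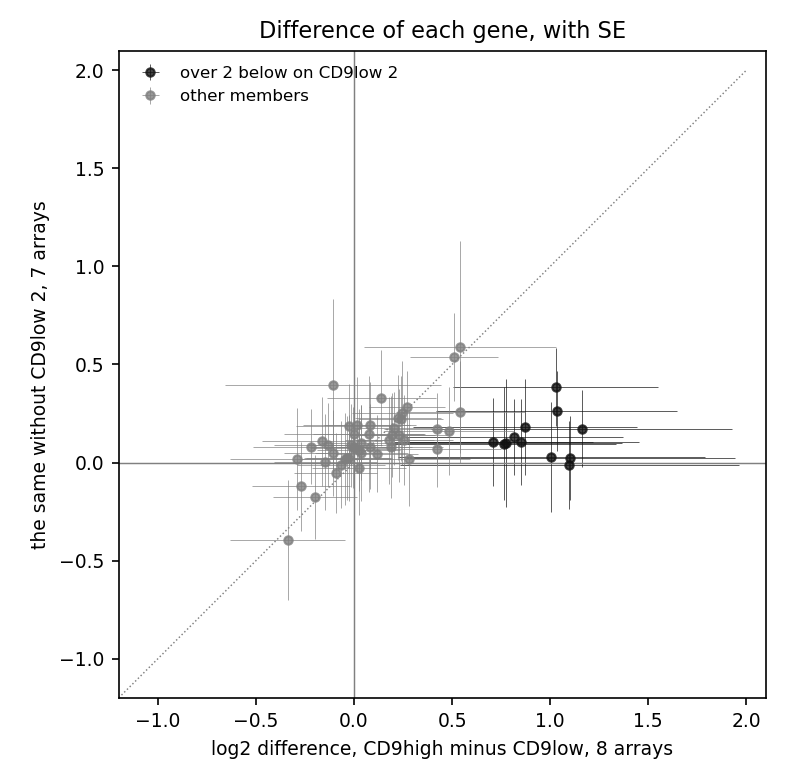
The log2 difference of each of the 59 ribosomal protein genes, CD9high minus CD9low, from all 8 arrays (horizontal axis) and without CD9low 2 (vertical axis), with the standard error of each as bars and the line of equality dotted. The 12 genes over 2 log2 units below on CD9low 2 (black) lie between 0.71 and 1.16 on the horizontal axis and between -0.01 and 0.39 on the vertical axis.

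The 12 low members came from both subunits, 7 of the 40S and 5 of the 60S, and from genes on 9 chromosomes. Together they made up 20.3% of the members, beside 3.11% of all genes. The threshold of 2 log2 units was chosen after the values were seen. The 12th member below it, Rps16, deviated by -2.52 from the median of the other arrays and the next member, Rpl31, by -1.38, so that no member lay between these values. On no other array was any of the 59 members more than 2 below.

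Rps6, the 40S protein phosphorylated by the S6 kinases downstream of mTOR, measured 9.43, 9.03, 9.36 and 9.11 on CD9high 1 to 4 and 9.49, 4.81, 9.35 and 8.90 on CD9low 1 to 4. CD9low 2 deviated by -4.54 from the median of the others. It was the only array on which the Rps6 probe was not above background, so that this size is a bound set by the background and the offset. The other 3 CD9low arrays overlapped the CD9high arrays. The difference was 1.10 (SE 0.86, limma adjusted p = 0.705), and without CD9low 2 it was -0.01. In the deposited signals, before any normalization, Rps6 stood at 6.93 on CD9low 2 and at 477 to 711 on the others.

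Rps13, a 40S protein related to bacterial S15, measured 10.77, 10.41, 10.38 and 10.54 in CD9high and 10.76, 6.18, 10.23 and 10.51 in CD9low. CD9low 2 was again the lone low array, 20.1-fold below the median of the others on the normalized scale, whose offset compresses low values. Its difference of 1.10 (SE 0.84, limma adjusted p = 0.702) became 0.02 without that array.

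Among the 60S genes, Rpl24, whose protein forms a bridge between the subunits and whose mutation causes the Belly spot and tail mouse, measured 10.89, 10.59, 10.54 and 10.46 in CD9high. In CD9low it measured 10.51, 6.50, 10.45 and 10.40. All arrays but CD9low 2 lay within 0.5 log2 units of each other. Its difference was 1.16 (SE 0.77, limma adjusted p = 0.653) and 0.17 without CD9low 2. The deposited signal of Rpl24 was 46.5 on CD9low 2 and 1159 to 1760 elsewhere.

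Rpl26, which lies beside the exit of the peptide tunnel, measured 10.19, 9.33, 10.02 and 9.72 in CD9high and 10.23, 5.87, 9.44 and 9.68 in CD9low. Rpl30, whose yeast relative binds its own transcript, measured 9.68, 6.43, 9.54 and 9.31 in CD9low and no less than 9.65 in CD9high. For both genes CD9low 2 was the lowest array and the other 7 overlapped between fractions. The differences were 1.01 (SE 0.78) and 1.03 (SE 0.62), and without CD9low 2 they were 0.03 and 0.26.

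For the 7 others the fold below the median of the other arrays on CD9low 2 ran from 7.60 (Rps4x, the X-linked copy of the 40S protein S4) to 5.75 (Rps16, whose tail reaches the transfer RNA in the peptidyl site). Between them lay Rpl27, Rps3a1, Rps9, Rpl7a and Rps7, at 7.30, 7.13, 7.04, 6.81 and 6.23. Over all 12 the median difference was 0.94 with 8 arrays, with a lowest adjusted p of 0.534 (Rps9), and 0.11 without CD9low 2. Over the other 47 members it was 0.04 with 8 arrays, with 28 above 0, and 0.09 without CD9low 2, with 41 above 0. The split was made on the CD9low 2 value, which enters the difference with 8 arrays. It also used the median of the other 7 arrays, so that the values without CD9low 2 are not fully free of the split. The medians of the 12 over the other 7 arrays spanned 9.35 to 11.54. A further 17 members had a median in that span and were not low. The span was set by the 12 themselves. None of the 30 members outside it, 13 dimmer and 17 brighter, could therefore be among them. For 6 of the dim ones the median lay within 2 log2 units of the lowest normalized value in the table, 4.17. A fall of more than 2 could not have shown in these.

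**Figure D2:**
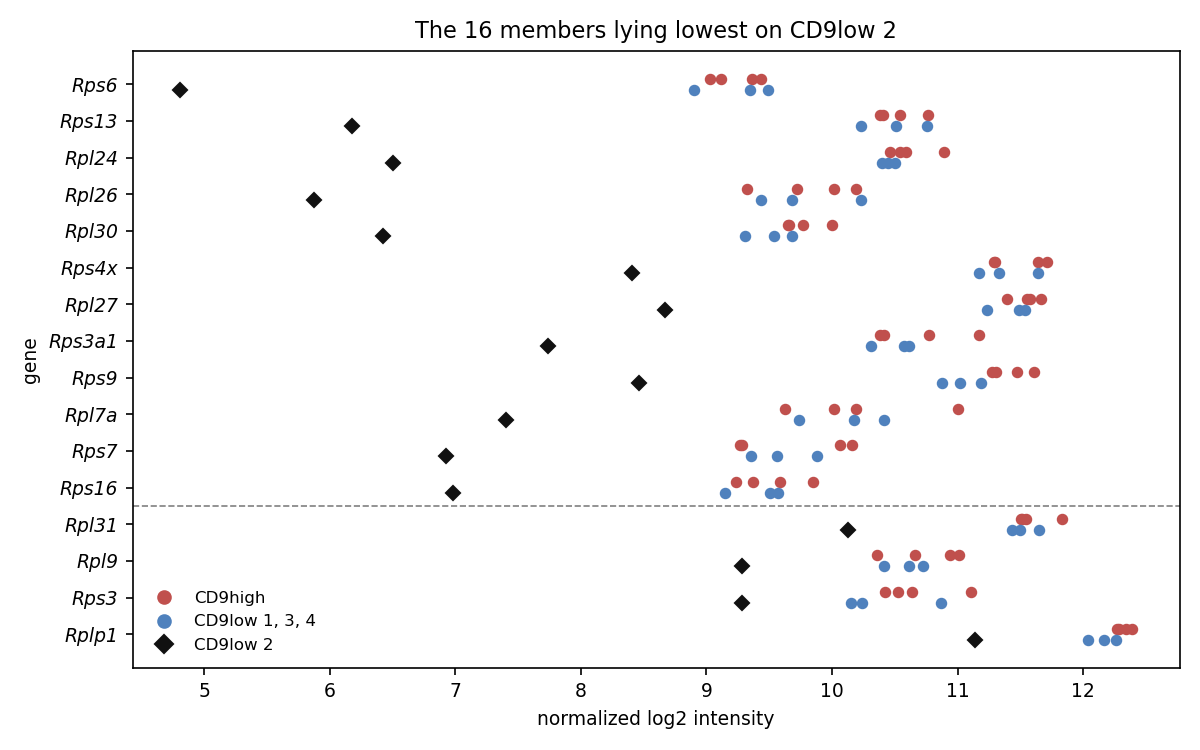
Normalized log2 intensity (horizontal axis) of the 16 members lowest on CD9low 2 relative to the other arrays, with the CD9high arrays in red, CD9low 1, 3 and 4 in blue and CD9low 2 as a black diamond. The dashed line parts the 12 members more than 2 log2 units below from the next 4, and in the first 12 the black diamond is far left of the 7 other points (Rps6 at 4.81, others 8.90 to 9.49).

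Beside the 12, CD9low 2 lay between 1 and 2 below for 4 members. These were Rpl31, at the rim of the peptide tunnel, Rpl9 of the 60S, Rps3 at the messenger RNA entry of the 40S, and the stalk protein Rplp1. A further 40 members lay within 1 log2 unit, and 3 lay more than 1 above. Those 3 were Rps19, the 40S gene most often mutated in human Diamond-Blackfan anaemia, Rpl29 and Rpl21, with deviations of 1.13, 1.18 and 2.03. Counted against the range of the other 7 arrays, CD9low 2 was below the lowest for 23 members, above the highest for 15 and inside it for 21. The members thus lay on both sides on this array rather than shifting together. All genes lay on both sides there too, with 333 of 10724 more than 2 below and 153 more than 2 above. More than 1 below on CD9low 2 were 16 members and 1405 of all genes. Counts against the range of the other 7 arrays were not made over all genes.

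The median of the members' deviations from their own mean was 0.31, -0.06, 0.15 and 0.06 on CD9high 1 to 4 and 0.06, -0.10, -0.04 and -0.06 on CD9low 1 to 4. Over all genes these medians ran from -0.04 to 0.13. Centring each array on its median in place of quantile normalization gave 0.42 for CD9low 2, so that the sign of that array's shift depends on the scaling. The interquartile range of the members' deviations was 1.29 log2 units on CD9low 2 and 0.28 to 0.56 elsewhere. The members' quartiles on CD9low 2 were -1.05 and 0.24. Over all genes the quartiles there were -0.44 and 0.61. On the other arrays the all-gene quartiles lay at -0.41 to -0.21 and 0.21 to 0.37, so that all genes spread more widely on CD9low 2 too. With CD9low 2 left out of the gene means, the shifts were 0.23, -0.15, 0.09 and 0.02 in CD9high and 0.03, -0.11 and -0.09 on CD9low 1, 3 and 4. CD9high 2 was then the lowest of all 7 arrays, and the fractions overlapped.

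**Figure D3:**
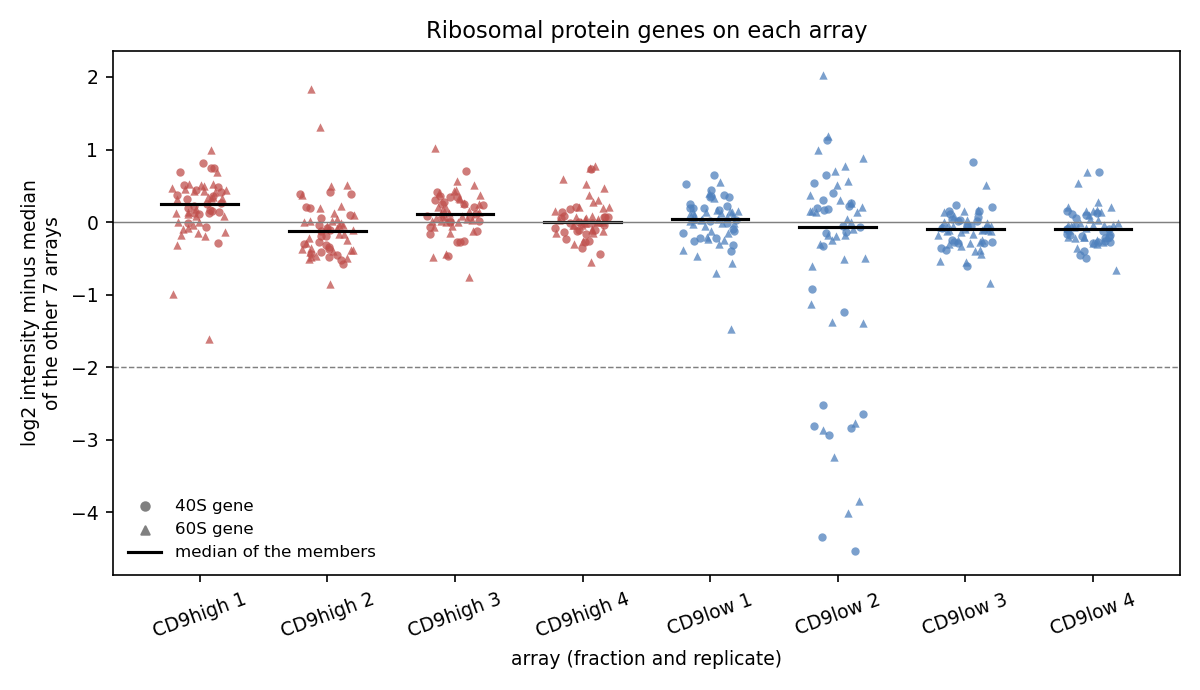
Each of the 59 ribosomal protein genes on each array, as log2 intensity minus the median of the other 7 arrays (vertical axis), with circles for 40S genes, triangles for 60S genes, red for CD9high, blue for CD9low and a bar for the median of the members. The 12 points under the dashed line at -2 are all on CD9low 2, which also holds the highest point, Rpl21 at 2.03.

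The array held several tested probes for 15 members, which allowed the same gene to be read more than once on CD9low 2. Of all 81 tested probes of the members, 16 lay more than 2 below there. For Rpl30 and Rps9 every tested probe was low. The 2 probes of Rps9, a 40S protein at the messenger RNA entry, deviated by -2.82 and -2.87, and those of Rpl30 by -3.23 and -2.49. The second Rpl30 probe read 7.67, 8.27, 7.41 and 7.76 in CD9high and 7.27, 4.96, 7.44 and 7.37 in CD9low.

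For Rps2 and Rpl27a the probes of 1 gene parted on that array. The brighter probe of Rps2, a 40S protein near the messenger RNA entry, read 11.70 on CD9low 2 and 11.12 to 11.74 elsewhere. Its second probe read 7.34 on CD9low 2 and 10.06 to 11.05 elsewhere. The first was thus inside its usual range while the second deviated by -3.41. Of the 4 probes of Rpl27a, a 60S gene, 1 deviated by -2.60 and the other 3 by 0.03 to 1.04. The second Rps13 probe read 4.26 to 4.87 on all arrays, too near the lowest values of the scale to show a fall of the size of the first, which deviated by -4.33. The probes of Rps2 also gave fraction differences of opposite sign more than 1 apart, as did those of Rps13, where the second is near that floor. In 10 genes no probe was more than 2 below.

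**Figure D4:**
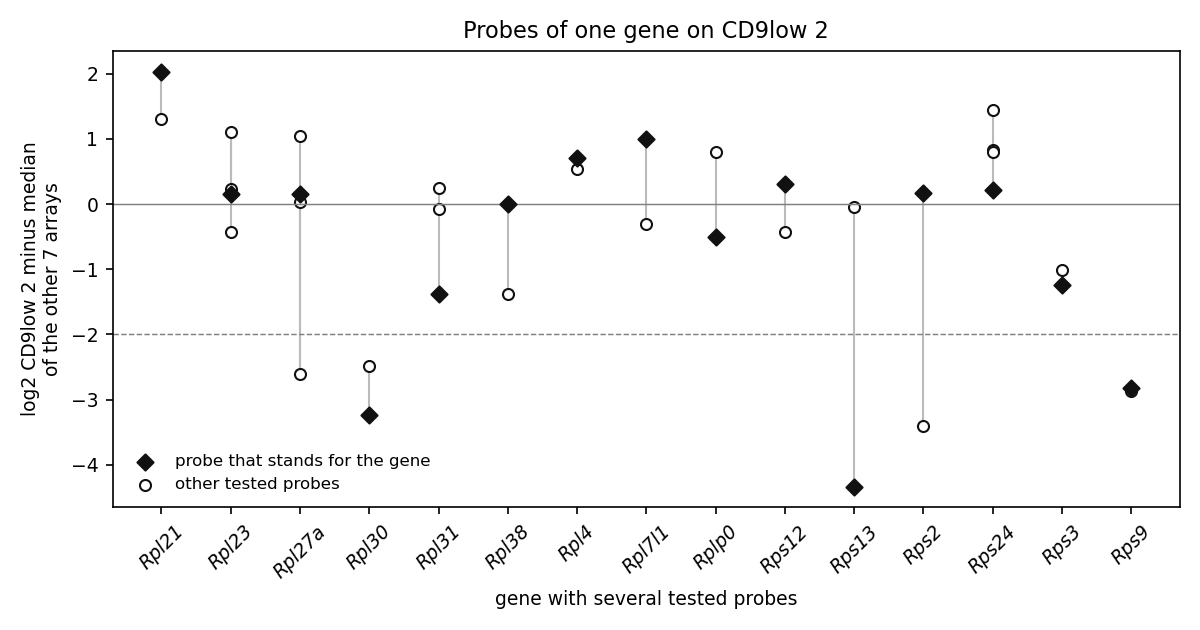
All tested probes of the 15 members with several, as log2 intensity on CD9low 2 minus the median of the other 7 arrays (vertical axis), with a black diamond for the probe that stands for the gene and open circles for the others. Both probes of Rpl30 and Rps9 lie under the dashed line at -2, while Rps2, Rpl27a and Rps13, whose second probe lies near the floor of the scale, have probes on both sides of it.

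The 3 members whose fractions did not overlap were Rplp1, Rps9 and Rps14, all higher in CD9high, beside 7.69% of all genes without overlap in either direction and 3.92% without overlap and higher in CD9high. They were the same 3 without CD9low 2, where the share of all genes was 11.3%. Rps14, whose human gene is lost in the 5q- syndrome, measured 12.23, 12.27, 12.31 and 12.14 in CD9high and from 11.87 to 12.08 in CD9low. The fractions lay close together, with every CD9high array above every CD9low array. Its difference was 0.27 (SE 0.19, limma adjusted p = 0.678), and 0.28 without CD9low 2.

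Rpl13a, a 60S protein that in human monocytes leaves the ribosome after interferon-γ, measured 8.93, 8.24, 8.61 and 8.55 in CD9high and 8.25, 8.16, 7.93 and 7.95 in CD9low. The lowest CD9high array met the highest CD9low array, and CD9low 2 was not apart. Its difference of 0.51 (SE 0.22, limma adjusted p = 0.449) had the lowest adjusted p among the members, and it was 0.54 without CD9low 2.

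The stalk is the part of the 60S subunit that recruits the elongation factors. Rplp0, its base, measured 6.29, 8.70, 7.95 and 8.16 in CD9high and 6.42, 7.39, 7.89 and 7.23 in CD9low. The lowest array of each fraction was replicate 1, and the fractions overlapped. Its difference was 0.54 (SE 0.49, limma adjusted p = 0.744), while its second probe differed by -0.34. Rplp1 measured 12.34, 12.27, 12.39 and 12.29 in CD9high and 12.04, 11.14, 12.16 and 12.26 in CD9low, so that the fractions parted by the width of CD9high 2 over CD9low 4 and CD9low 2 was lowest. Its difference was 0.42 (SE 0.27, limma adjusted p = 0.644) and 0.17 without CD9low 2. Rplp2, its partner, averaged 11.46 ± 0.11 and 11.44 ± 0.24 and differed by 0.02 (SE 0.21), or 0.06 without CD9low 2.

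Paralogs are second copies of ribosomal protein genes that can take the place of the usual protein. Of 7 listed, 4 were measured and none passed the test. Rpl22l1, the copy of Rpl22, differed by 0.23 (SE 0.24). Rps27l, a p53 target, differed by -0.20 (SE 0.22), Rpl7l1 by -0.17 (SE 0.31) and Rps4l by -0.27 (SE 0.25). Without CD9low 2 the differences were 0.14, -0.18, 0.11 and -0.12, so that Rpl7l1 turned sign. The standard errors were of the size of the differences.

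Several members were dim. Rpl6 was detected on 4 arrays, Rps4l on 4 and Rpsa, the 40S protein also known as the laminin receptor precursor, on 5, so that their values lie near background. Rps20, with the most negative difference, measured 4.84, 4.55, 4.86 and 5.59 in CD9high and 4.82, 5.13, 5.69 and 5.55 in CD9low, and was detected on 7 arrays. The fractions overlapped, and the difference was -0.34 (SE 0.29, limma adjusted p = 0.728). Rpl21, a dim probe of a 60S gene, measured 5.08, 6.92, 4.96 and 5.08 in CD9high and 5.03, 7.11, 5.02 and 5.29 in CD9low. It was high on both replicate 2 arrays, as was its second probe at 6.08 and 6.26. The probes of Rpl23, Rpl27a, Rps29, Rps12 and Rps24 gave the highest signals among the members, with means of 13.93, 12.75, 12.71, 12.50 and 12.43, and probe brightness is not compared between genes here. The 3 symbols that failed the filter were Rpl39l and Rpl3l, detected on 0 arrays, and Rps15a, detected on 1 CD9high and 2 CD9low arrays.

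Within the ribosome, 9 genes of the 40S head had a median difference of 0.12 and 7 genes of the 60S exit tunnel 0.08, with 0 passing the test in either list, and without CD9low 2 the medians were 0.08 and 0.12. In the head the smallest unadjusted p-values belonged to Rps3, Rps16, Rps20 and Rps15, which differed by 0.54 (SE 0.33), 0.71 (SE 0.51), -0.34 (SE 0.29) and 0.28 (SE 0.31), and without CD9low 2 by 0.26, 0.10, -0.39 and 0.02. In the tunnel they belonged to Rpl26, Rpl31, Rpl35 and Rpl39, the last 3 of which differed by 0.42 (SE 0.33), 0.25 (SE 0.25) and 0.08 (SE 0.23), and without CD9low 2 by 0.07, 0.12 and 0.19. Of 18 genes whose human relatives are mutated in Diamond-Blackfan anaemia, 10 were measured. Their median was 0.20, or 0.08 without CD9low 2, 0 passed, and Rpl26, Rpl27 and Rps7 were among the low genes on CD9low 2. Rpl36al, a ribosomal protein gene outside the symbol rule, deviated by -1.29 on CD9low 2 and differed by 0.33 (SE 0.33), or by 0.02 without that array.

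Other messenger RNAs of the TOP class were read beside the members. Of 14 elongation factors and other TOP genes measured, 0 passed the test and the median difference was 0.30, or 0.07 without CD9low 2. More than 2 below on CD9low 2 were 4 of them. Eef1b2, an exchange factor for elongation factor 1, read 8.37 there and 10.66 to 11.09 elsewhere. Npm1, a nucleolar chaperone, read 7.70 there and 10.26 to 10.75 elsewhere, and Nap1l1, a histone chaperone, 6.27 there and 8.54 to 9.23 elsewhere. The last, the splicing regulator Hnrnpa1, read 8.12 there and 10.14 to 10.55 elsewhere. Elongation factor gene Eef1a1 deviated by -0.55 and Eef2 by -0.25, so that this list too was divided. Smallest p-values in the list were those of Eif4b, Eef1b2, Eif3h and Npm1, with differences of 0.91 (SE 0.38), 0.75 (SE 0.49), 0.65 (SE 0.42) and 0.85 (SE 0.55), and without CD9low 2 of 0.56, 0.16, 0.23 and 0.17.

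The mitochondrial ribosome has its own set of proteins, and it served as a set with a like function in another compartment. Of 74 such genes measured 0 passed the test. Their median difference was -0.23 with 22 above 0, and -0.13 without CD9low 2. Only Mrpl15 was more than 2 below on CD9low 2, and the list's median deviation there was 0.56 above the median of the other arrays. Its smallest p-values were those of Mrpl44, Mrpl14, Mrps12 and Mrps28, with differences of -0.71 (SE 0.28), -0.88 (SE 0.34), -0.87 (SE 0.34) and -0.61 (SE 0.24), and without CD9low 2 of -0.89, -0.70, -0.57 and -0.46.

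Among 54 ribosome biogenesis genes 0 passed, the median difference was -0.24 with 14 above 0, and without CD9low 2 it was -0.22 with 7 above 0. The 4 with the smallest p-values were Ppan, Rrp12, Nop14 and Wdr75, all processing factors of ribosomal RNA, at -0.86 (SE 0.30), -1.28 (SE 0.49), -1.03 (SE 0.46) and -0.64 (SE 0.29), or at -0.71, -0.79, -0.79 and -0.47 without CD9low 2. For 32 initiation factors the median was -0.05, or -0.07 without CD9low 2, 0 passed and 0 were more than 2 below on CD9low 2. The smallest p-values there were those of Eif4b, Eif2b4, Eif5a and Eif2b2, at 0.91 (SE 0.38), -1.16 (SE 0.50), 0.84 (SE 0.40) and 0.77 (SE 0.42), or at 0.56, -0.92, 0.44 and 0.32 without CD9low 2.

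**Figure D5:**
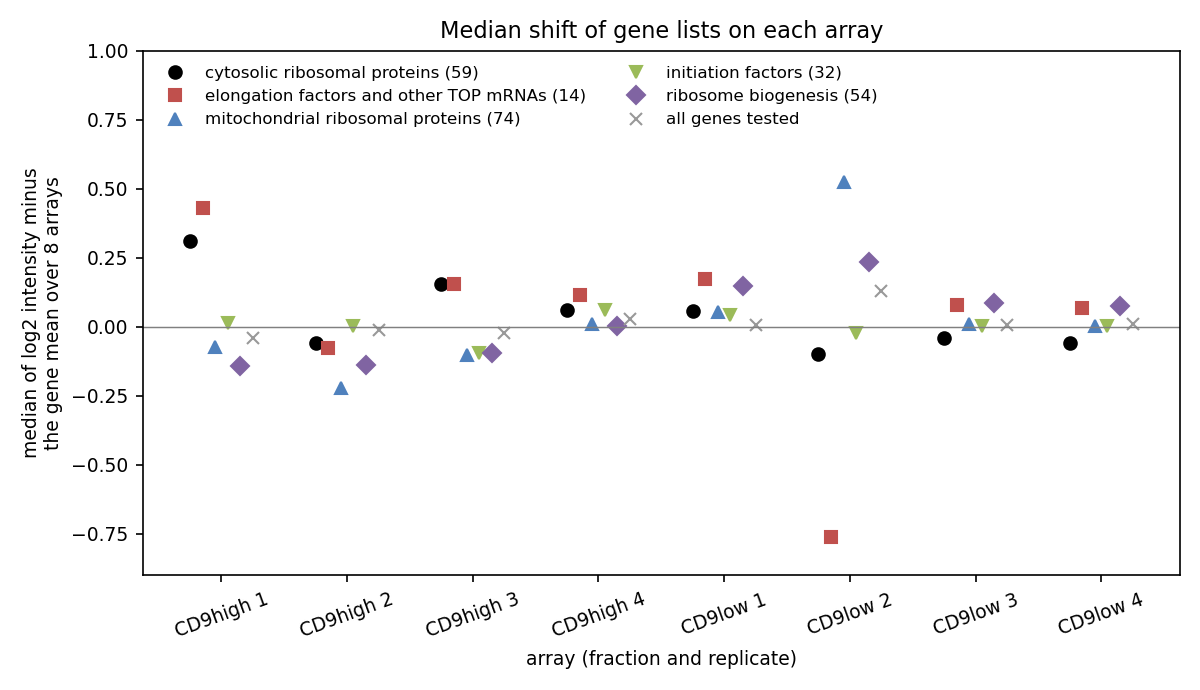
Median over the genes of each list of log2 intensity minus the gene's mean over the 8 arrays (vertical axis), for each array (horizontal axis), with the number of genes measured in the legend. On CD9low 2 the elongation factors and other TOP mRNAs lie at -0.76, the mitochondrial ribosomal proteins at 0.53 and the cytosolic ribosomal proteins at -0.10.

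Of 19 genes in the growth control of translation, 1 passed the test. Rptor, which encodes the mTOR partner raptor, measured 8.94, 8.78, 7.90 and 7.99 in CD9high and 6.27, 6.27, 6.19 and 7.11 in CD9low. Every CD9high array lay above every CD9low array. Rptor was higher in CD9high by 1.94 (SE 0.32, limma adjusted p = 0.0148), and by 1.88 without CD9low 2 (adjusted p = 0.0214). Rptor had 4 tested probes that did not give the same direction, with differences of 1.94, -0.85, 0.15 and -0.44. The mean over the 4 differed by 0.20 (adjusted p = 0.781), so that the call rests on 1 probe. It was also lost (limma adjusted p 0.0568 to 0.0619) when CD9high 1, CD9low 1 or CD9low 3 was left out. The next smallest p-values in the list were those of Mlst8, another mTOR partner, Sesn1, an inhibitor of the mTOR pathway, and the transcription factor Myc. They differed by -0.65 (SE 0.21), 0.45 (SE 0.22) and -0.69 (SE 0.45), or by -0.57, 0.33 and -0.72 without CD9low 2, and none passed.

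Some markers of other cells were also highest on CD9low 2. The summed normalized intensity of 5 leukocyte markers, including Ptprc (CD45), Tyrobp and Laptm5, ran from 448 to 3370 in CD9high and from 317 to 4637 in CD9low, with the highest value on CD9low 2 and the next on CD9high 2. That of 5 endothelial markers, including Pecam1 (CD31) and Cldn5, ran from 325 to 992 and from 305 to 2928, again highest on CD9low 2. Much of that sum was Cldn5, the brightest of the 5 there at 11.18 (log2), and Pecam1 and Emcn were also highest on that array. Cdh5 and Egfl7 were not, at 6.32 and 8.31 there and up to 6.63 and 8.39 elsewhere. Ptprc itself was detected on 5 arrays and did not follow the leukocyte sum. It was highest on CD9high 2, at 6.27 (log2), with 6.00 on CD9low 3 and 5.65 on CD9low 2. The markers summed were the measured ones of 9 leukocyte and 7 endothelial markers listed, and 0 differed between fractions past the test. The 8 measured progenitor markers summed to 21501 to 27352 in CD9high and 23815 to 30028 in CD9low, and CD9low 2 was the lowest CD9low array and inside the CD9high range. Of 6 mural, 3 mesothelial and 3 adipocyte markers measured 0 passed, and CD9low 2 was not the highest array for any of these lists. Only 1 of 4 listed Schwann cell markers was measured, and it did not pass. Its signal was dim and highest on CD9low 2, at 19.8 against 5.18 to 14.9 elsewhere. The part of the other cells or of the lower detection in the low ribosomal protein values on CD9low 2 was not tested.

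Transcripts of red blood cells gave a like division on that array. The haemoglobin genes Hba-a1 and Hbb-bt deviated by -2.22 and -2.38 there, while Hbb-bs deviated by 0.94 and Alas2, the haem synthesis enzyme of red cells, by 2.46. The erythroid list held 4 genes, and its members differed in direction on CD9low 2.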

How the data were processed

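Arrays of 8 samples of sorted progenitors, 4 CD9high and 4 CD9low, were analysed. Total RNA was amplified and biotin-labelled with the Ovation Pico WTA and Encore BiotinIL kits, per the labels' protocols. The authors deposited probe intensity with, per the file headers, a detection p-value for each probe and array, and the submitters' processing notes name GenomeStudio without a version. The deposited intensity was not normalized between arrays, and values below 0 show that a background had been subtracted. A second deposited table of normalized intensity served as an alternative.

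Signals were processed with neqc of limma 3.58.1 in R 4.3.3 (statmod 1.5.0): normexp background (negative control moments taken from the detection p), offset 16, quantile normalization and log2, computed here from the deposited intensity. The offset compresses differences of dim probes. Probes with a detection p under 0.05 on at least 4 of 8 arrays were kept, and the brightest stood for its gene. Gene names are those of the platform annotation, and probes were not checked against near-identical gene copies or pseudogenes, which are common for ribosomal proteins. The fractions were compared with lmFit and eBayes over 10724 genes with Benjamini-Hochberg adjustment (threshold 0.05), and the code was tested on simulated data. Precision is limited by 4 arrays per fraction.

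The members, gene lists, tests and rules were chosen with earlier results of these data known, so that no p-value is given over the members or adjusted over a list. Lists are described by counts and medians. Named genes are Cd9, members without overlap, the 8 largest differences of each sign, the brightest and dimmest members, the 3 with the widest spread, stalk and paralog genes, members with conflicting probes or patchy detection, and in other lists those past the test and the 4 with the smallest p. Further genes, such as those low on CD9low 2, were named after their values were seen. The listed 5S RNP genes and further symbols without a named probe were not analysed here. Alternatives were no background correction, median centring, offset 50, the authors' table, other detection filters, probe means, slide or replicate blocks, slide 1 alone, array weights and each array left out.

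Replicate numbers occur in both fractions. Deviations of same-numbered samples correlated at 0.22, -0.10, 0.18 and 0.16, and 5 of 8 samples correlated best with their own number. No label ties a number to an animal or a pool, so that the main fit has no block. A replicate block was run as an alternative. Whether same-numbered samples came from the same animals was not tested, because correlations of this size cannot show it either way.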

Additional observations from a re-analysis of the deposited data

Results flagged for a closer look

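Single arrays far from the other 3 of their fraction were sought for each member and for the members' median shift. In 120 groups of 4 arrays examined, 17 values (14.2%) were flagged. Their gap to the nearest other array took up more of the group's range than Dixon's critical value for 4 samples. Chance passes that value in about 1 in 20 separate groups. Members share arrays, so that these groups are not separate, and the 14.2% cannot be tested against that rate. Of the 17 values, 14 were on CD9low 2, and 10 of the 14 were the lowest of their group.

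The low values on CD9low 2 were Rps6 at 4.81, Rps13 at 6.18, Rpl30 at 6.43, Rpl24 at 6.50, Rps16 at 6.98, Rps3a1 at 7.74, Rps4x at 8.40, Rps9 at 8.46, Rpl27 at 8.67 and Rpl31 at 10.13 (log2 intensity). The nearest CD9low array of Rps6 read 8.90 and that of Rpl31 11.43. The high values on CD9low 2 were Rpl21 at 7.11, Rpl34, a 60S gene, at 11.72, Rps12, a 40S gene, at 12.76 and Rps19 at 12.79.

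In CD9high, 3 values stood apart and all were high, with Rpl21 at 6.92 on CD9high 2, Rpl31 at 11.83 on CD9high 1 and Rplp2 at 11.62 on CD9high 4. For Rpl31 and Rplp2 the gap to the next array was small, from 11.54 and 11.42.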

How the results depend on the processing

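Over 20 alternatives, 19 of them planned, 0 ribosomal protein genes passed the test in any, and the lowest adjusted p of a member was 0.142. The members' median difference stayed above 0, between 0.05 and 0.19, with 33 to 52 members above 0, and 11 or 12 members were more than 2 below on CD9low 2 in each alternative that kept this array. Over the whole table, 121 genes were higher and 60 lower in CD9high. Leaving out single arrays gave 36 to 158 higher and 18 to 72 lower. The replicate block gave 56 higher and 20 lower with 0 members, and 5 of 8 samples correlated best with their own number, a hint from the data and not the design. Slide 1 alone gave 35 and 13, and array weights 275 and 147. Median centring gave 35 lower, and shifts of -0.11, 0.42 and -0.16 on CD9low 1, 2 and 3. Leaving out CD9high 2 and CD9low 2 together, an alternative chosen after seeing the data, gave 190 higher and a shift of 0.18 on CD9high 1. The cause of these moves was not tested, and the alternatives that left arrays out also had fewer samples. Rptor lost its call in 5 of 20 alternatives, with adjusted p between 0.00338 and 0.781. Dim probes such as Rpsa, Rpl6 and Rps4l lie near background, and a difference in them may not be detectable at this signal.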
